A study of Homo sapiens with 12 samples.

Results

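A set of 10 NF-kB pathway genes, among the 60675 gene IDs in the count table, were followed in HT29 cells, a human colorectal adenocarcinoma cell line, after 24 h with ACD, a water extract of Aconitum carmichaeli Debeaux. They were selected by symbol as 4 subunits of the transcription factor (NFKB1, NFKB2, RELA and RELB), 4 inhibitors or modulators that the factor itself switches on (NFKBIA, NFKBIE, NFKBIZ and TNFAIP3) and 2 targets (BIRC3 and ICAM1). The CPM (counts per 1e6 reads) of the same 12 libraries were in view when these genes were chosen, so their values are given as a description, without a p-value. The RNA-seq libraries fell into 4 groups of 3: vehicle, which was phosphate-buffered saline with 2% DMSO, and ACD at 20 µg/mL (low dose), 100 µg/mL (medium dose) and 500 µg/mL (high dose). By the methods of the study, the extract stock was also made in phosphate-buffered saline with 2% DMSO. Extract solutions were added to wells that held medium, so 2% is not the DMSO level in the culture. The liquid that diluted the stock for the low and medium doses is not named. The question was how the transcripts of the factor and those of its own inhibitors and targets differed with dose. A single cell line was used, the 3 doses share the vehicle libraries, and nothing states that replicates came from separate cultures, so the spread may be technical. Each library is bulk RNA, so more cells with a transcript and more of it per cell cannot be told apart.

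NF-kB is a family of dimers formed from the products of NFKB1, NFKB2, RELA, RELB and REL. In resting cells IkB proteins such as those of NFKBIA and NFKBIE hold the dimers in the cytoplasm, and signals from receptors of tumour necrosis factor, interleukin-1 or microbial products release them through the IkB kinases. The dimers then switch on inflammatory, adhesion and survival genes together with their own inhibitors, which makes NFKBIA and TNFAIP3 classic feedback genes. In the gut epithelium the pathway is known for chemokine production and for protection of cells from death.

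All 10 genes passed the filter on low counts. The libraries held 15941255 to 33866644 expected counts, and the 10 genes were covered by 23 counts (TNFAIP3, vehicle replicate 1) to 3896 counts (RELA, high-dose replicate 3) per library. High-dose replicate 2, the shallowest library, stood apart from the others. The SD of its log2 differences from the other replicates of its group was 0.502, against 0.103 to 0.293 for the other 11 libraries. Values without this library are given for some of the results below and not for all. Mitochondrial transcripts took 14.0% to 16.6% of the counts at the high dose and 7.41% to 11.05% in the other groups. With library sizes taken without them, no log2 fold change of the 10 genes moved by more than 0.01. The epithelial markers were at very different levels. Vehicle means were 6438 CPM for KRT8, 3493 CPM for KRT18, 594 CPM for LGALS4, 539 CPM for EPCAM and 425 CPM for CDH1. KRT20 was at 240 CPM and VIL1 at 173.5 CPM. The transcription factor genes were low, with CDX2 at 5.0 CPM and CDX1 at 1.2 CPM (19 to 50 counts per library). Of the leukocyte markers given here, PTPRC had 0 to 3 and CD3E 0 or 1 counts per library, while CD14 had 50 to 114 and LYZ, which colon epithelium can also express, 26645 to 54694 counts. Of the fibroblast and endothelial markers, COL1A2 had 0 counts in every library, DCN 0 or 1 and VWF 0 to 3, while COL1A1 had 5 to 42 and PECAM1 28 to 63 counts.

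Promoter sequence was taken from RefSeq (GRCh38.p14), as windows from 250 bases before to 50 bases after a transcription start. It was held for 8 of the 10 genes and not for RELB and NFKBIE. The NF-kB consensus motif of 10 letters was searched on both strands, as was GGANNNTCC, a core that reads the same on both strands and can overlap with the consensus. The consensus was in 6 of these 8 genes (75%) and in 1937 of 27305 genes with a window (7.09%). GGANNNTCC was in 7 of 8 (87.5%), against 11.2% of all genes. The 250 upstream bases of 5 genes are printed 5′ to 3′ because they cover the range of the expression results below. BIRC3 and ICAM1 had the highest fold changes, NFKBIA is the classic feedback gene, and NFKB1 and RELA were the subunits nearest to their vehicle level. Where a gene has 2 windows, the one with a match is shown. Capitals mark matches to either motif.
BIRC3, chr11:102317234-102317483, plus strand: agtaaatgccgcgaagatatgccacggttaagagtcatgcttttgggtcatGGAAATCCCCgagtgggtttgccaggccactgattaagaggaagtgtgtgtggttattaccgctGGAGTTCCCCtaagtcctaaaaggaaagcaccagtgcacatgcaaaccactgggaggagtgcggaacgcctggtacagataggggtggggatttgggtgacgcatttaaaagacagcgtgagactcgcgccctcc
ICAM1, chr19:10270870-10271119, plus strand: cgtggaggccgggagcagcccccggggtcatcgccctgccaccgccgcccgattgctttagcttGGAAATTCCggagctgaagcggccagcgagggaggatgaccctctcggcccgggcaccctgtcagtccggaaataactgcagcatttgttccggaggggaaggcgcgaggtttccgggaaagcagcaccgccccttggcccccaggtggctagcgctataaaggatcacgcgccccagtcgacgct
NFKBIA, chr14:35404750-35404999, minus strand: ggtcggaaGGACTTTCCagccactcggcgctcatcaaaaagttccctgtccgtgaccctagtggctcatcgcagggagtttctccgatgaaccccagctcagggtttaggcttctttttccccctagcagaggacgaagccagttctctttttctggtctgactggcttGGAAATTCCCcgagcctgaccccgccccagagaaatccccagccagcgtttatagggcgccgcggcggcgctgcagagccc
NFKB1, chr4:102501109-102501358, plus strand: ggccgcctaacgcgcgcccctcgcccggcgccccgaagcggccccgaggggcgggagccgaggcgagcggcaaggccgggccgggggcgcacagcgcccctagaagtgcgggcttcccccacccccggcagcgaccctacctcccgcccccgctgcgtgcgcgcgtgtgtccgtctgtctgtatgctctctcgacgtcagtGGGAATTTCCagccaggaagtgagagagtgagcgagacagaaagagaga
RELA, chr11:65663858-65664107, minus strand: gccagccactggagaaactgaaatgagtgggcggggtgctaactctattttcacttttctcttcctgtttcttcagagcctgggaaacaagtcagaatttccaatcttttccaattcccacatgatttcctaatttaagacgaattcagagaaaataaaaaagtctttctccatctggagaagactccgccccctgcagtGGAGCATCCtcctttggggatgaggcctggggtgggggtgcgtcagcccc
In the BIRC3 window, 2 consensus matches lay at −199 to −190 and −135 to −126 from the start site. The ICAM1 window held no consensus match and 1 match to GGANNNTCC at −186 to −178. NFKBIA had a consensus match at −81 to −72, which also holds GGANNNTCC, and a second match to GGANNNTCC at −242 to −234. NFKB1 had a consensus match at −49 to −40. RELA had no consensus match in its 2 windows. Its 1 match to GGANNNTCC, at −50 to −42, was in the printed window, which lies wholly upstream of the gene location given below. The other window, chr11:65662867-65663166, spans the start of that location and had no match to either motif. A match describes the letters in the window and no more.

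Among the 10 genes, the 2 targets showed the largest differences from vehicle. At the high dose the mean level of ICAM1 was 2.38 times and that of BIRC3 2.12 times the vehicle level by the fitted fold change, whereas the 4 subunits lay between 0.932 and 1.39 times and the 4 inhibitors between 1.12 and 1.57 times. At the high dose every library of 6 of the 10 genes lay above every vehicle library, with 100 µg/mL of 7 and with 20 µg/mL of 5, and in none did every library lie below. Over the 15374 genes tested, all high-dose libraries lay above all vehicle libraries in 10.5% of genes, all medium-dose libraries in 14.5% and all low-dose libraries in 11.4%. The shares wholly below vehicle were 11.5%, 14.1% and 9.61% in the same order, so none below among 10 genes is not far from them. By the thresholds of the study (edgeR adjusted p below 0.05 with over 1.5-fold change), 2 of the 10 were differentially expressed genes (DEGs) at the high dose, against 1.26% of all genes tested in that direction, 1 with 100 µg/mL (0.384%) and 0 with 20 µg/mL. By the adjusted p alone, 4 were past the threshold at the high dose, all higher, against 2.82% of all genes, 1 with 100 µg/mL (0.572%) and 0 with 20 µg/mL (0.0715%). These calls use the values on which the genes were chosen, and nothing is read from them. Without high-dose replicate 2 the numbers past the adjusted p were 6, 4 and 1 from the high to the low dose, all higher, and the shares of all genes in that direction were 9.83%, 3.62% and 0.97%.

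**Figure D1:**
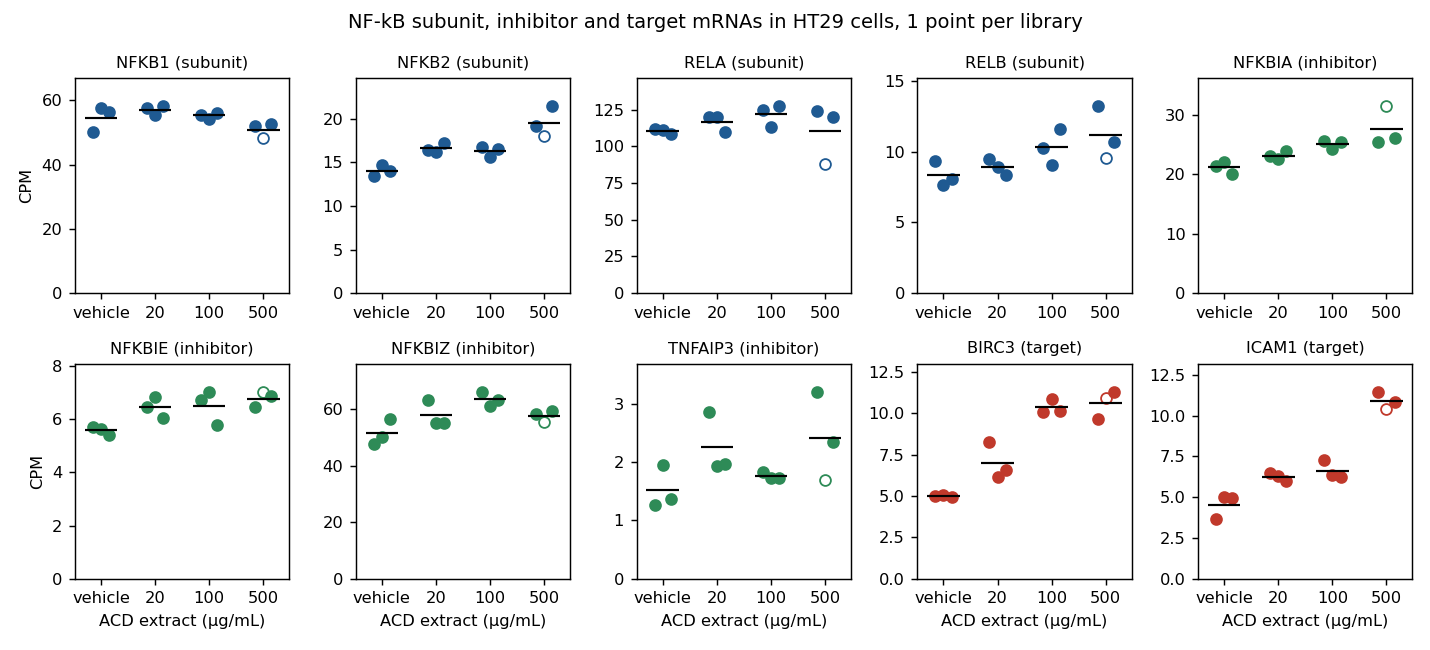
Level of each of the 10 genes in every library, in CPM, by dose group in µg/mL of ACD, with each axis starting at 0. Points are libraries, the bar is the group mean and the open point is high-dose replicate 2. BIRC3 was at 4.92 to 5.06 CPM in vehicle and at 9.68 to 11.3 CPM at the high dose, while NFKB1 stayed between 48.2 and 58.1 CPM in all 12 libraries.

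The subunits are described first. RELA encodes p65, the subunit that carries the transactivation domain of the most common dimer (ENSG00000173039, chr11:65653599-65663090 in GRCh38, as for all gene locations given, minus strand). Its level was 112, 111 and 108 CPM in the vehicle libraries, 120, 120 and 110 CPM in the low-dose libraries, 125, 113 and 127 CPM in the medium-dose and 124, 88.1 and 120 CPM in the high-dose ones. The medium-dose libraries all lay above vehicle, whereas high-dose replicate 2 was the lowest of the 12 libraries and the other high-dose libraries were above vehicle. The log2 fold change at the high dose was 0.01 ± 0.11 (SE), and 0.15 without high-dose replicate 2. At the medium dose it was 0.14 ± 0.11, and at the low dose 0.08 ± 0.11.

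NFKB1 encodes p105, the precursor of p50, the usual partner of p65 (ENSG00000109320, chr4:102501330-102617302, plus strand). It lay between 50.03 and 57.6 CPM in vehicle, 55.4 and 58.1 CPM in the low-dose libraries, 54.3 and 56.1 CPM in the medium-dose and 48.2 and 52.5 CPM in the high-dose ones. The high-dose libraries overlapped with the lowest vehicle library, and all 3 lay below every low-dose and medium-dose library. NFKB1 was the only one of the 10 genes with a log2 fold change below 0 at the high dose, −0.10 ± 0.07.

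NFKB2 encodes p100, the precursor of p52 in the alternative pathway, and is itself a target of NF-kB (ENSG00000077150, chr10:102394110-102402524, plus strand). It was at 13.5, 14.7 and 14.0 CPM in vehicle, 16.4, 16.2 and 17.2 CPM in the low-dose libraries, 16.8, 15.6 and 16.5 CPM in the medium-dose and 19.2, 18.0 and 21.4 CPM in the high-dose ones. No library of any dose group overlapped with vehicle, and the high-dose libraries lay above all others. The log2 fold changes were 0.24, 0.21 and 0.48, each ± 0.08, from the low to the high dose, and the last was 0.53 without high-dose replicate 2. Within a library, NFKB2 stood at 24.8% to 27.0% of the CPM of NFKB1 in vehicle, 28.5% to 29.7% in the low-dose libraries, 28.8% to 30.3% in the medium-dose and 37.0% to 40.8% in the high-dose ones, a ratio that does not depend on library size.

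RELB encodes the partner of p52 (ENSG00000104856, chr19:45001461-45038192, plus strand). Its level was 9.30, 7.64 and 8.04 CPM in vehicle, 9.48, 8.91 and 8.33 CPM in the low-dose libraries, 10.3, 9.07 and 11.6 CPM in the medium-dose and 13.2, 9.56 and 10.7 CPM in the high-dose ones. The high-dose libraries lay above vehicle, replicate 2 by the smallest margin, and the low-dose and medium-dose libraries overlapped with vehicle. The log2 fold change was 0.44 ± 0.13 at the high dose. Leaving out high-dose replicate 2 moved it to 0.52.

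Among the inhibitors, NFKBIA encodes IkB alpha, which is degraded on signalling and made again as the factor acts (ENSG00000100906, chr14:35401079-35404749, minus strand). It was at 21.4, 22.0 and 20.1 CPM in vehicle, 23.0, 22.6 and 23.9 CPM in the low-dose libraries, 25.5, 24.3 and 25.5 CPM in the medium-dose and 25.4, 31.4 and 26.1 CPM in the high-dose ones. All 3 dose groups lay above vehicle, and high-dose replicate 2 was the highest library. The log2 fold change was 0.13, 0.24 and 0.38, each ± 0.09, from the low to the high dose, and the last was 0.28 without replicate 2. As a share of RELA, NFKBIA was at 18.6% to 19.8% in vehicle and at 20.5%, 35.7% and 21.8% in the 3 high-dose libraries, where 35.7% is that of replicate 2.

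NFKBIE, which encodes IkB epsilon, was at 5.40 to 5.72 CPM in vehicle, 6.04 to 6.84 CPM in the low-dose libraries, 5.77 to 7.02 CPM in the medium-dose and 6.44 to 7.01 CPM in the high-dose ones (ENSG00000146232, chr6:44258166-44265788, minus strand). Every treated library lay above every vehicle library, with log2 fold changes of 0.21, 0.22 and 0.27, each ± 0.10, from the low to the high dose. NFKBIZ encodes IkB zeta, a nuclear protein that modulates transcription by NF-kB rather than holding it in the cytoplasm (ENSG00000144802, chr3:101827991-101861022, plus strand). It was at 47.5 to 56.6 CPM in vehicle, 55.1 to 63.2 CPM in the low-dose libraries, 61.0 to 66.1 CPM in the medium-dose and 55.4 to 59.4 CPM in the high-dose ones. Only the medium-dose libraries were clear of vehicle, with a log2 fold change of 0.30 ± 0.08 against 0.16 ± 0.08 at the high dose. NXPE3, a gene annotated on the same strand that overlaps with NFKBIZ, held 13.3% as many counts, so reads of these genes could be divided differently by another method.

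TNFAIP3 encodes A20, a ubiquitin-editing enzyme that shuts off signalling upstream of the IkB kinases (ENSG00000118503, chr6:137867214-137883314, plus strand). It was at 1.27, 1.94 and 1.36 CPM in vehicle, 2.85, 1.94 and 1.97 CPM in the low-dose libraries, 1.84, 1.73 and 1.72 CPM in the medium-dose and 3.20, 1.70 and 2.34 CPM in the high-dose ones. Every dose group overlapped with vehicle, in which replicate 2 was highest. TNFAIP3 had the widest spread within groups of the 10 genes, with a pooled SD of 0.311 on the log2 CPM scale against 0.068 to 0.171 for the others. Its log2 fold changes were 0.54 ± 0.25, 0.18 ± 0.25 and 0.65 ± 0.25 from the low to the high dose. Leaving out a library of its own group put the high-dose value at 0.80 (replicate 2) or 0.41 (replicate 1). The medium-dose value was 0.07 without vehicle replicate 1 and 0.42 without vehicle replicate 2, and the low-dose value was 0.33 without low-dose replicate 1.

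BIRC3 encodes cIAP2, a ubiquitin ligase that keeps tumour necrosis factor signalling on the survival side (ENSG00000023445, chr11:102317484-102339403, plus strand). It was at 5.01, 5.06 and 4.92 CPM in vehicle, 8.24, 6.13 and 6.58 CPM in the low-dose libraries, 10.05, 10.9 and 10.1 CPM in the medium-dose and 9.68, 10.9 and 11.3 CPM in the high-dose ones. Each dose group was clear of vehicle, and the medium-dose and high-dose libraries overlapped with each other and lay above the low dose. The log2 fold change was 0.48, 1.05 and 1.09, each ± 0.12, from the low to the high dose. From the low to the medium dose it was 0.57 ± 0.11 and from the medium to the high dose 0.04 ± 0.11. BIRC2, a close relative that could share reads with BIRC3, was at 44.8 ± 2.38 CPM (SD, n = 3) in vehicle and 50.2 ± 8.52 CPM (SD, n = 3) at the high dose.

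ICAM1 encodes the adhesion molecule to which leukocyte integrins bind (ENSG00000090339, chr19:10271093-10286615, plus strand). It was at 3.63, 5.03 and 4.92 CPM in vehicle, 6.49, 6.31 and 5.998 CPM in the low-dose libraries, 7.25, 6.37 and 6.26 CPM in the medium-dose and 11.4, 10.4 and 10.8 CPM in the high-dose ones. All dose groups were clear of vehicle, the low-dose and medium-dose libraries overlapped, and the high-dose libraries stood above all of them. The log2 fold change was 0.45 ± 0.12, 0.53 ± 0.12 and 1.25 ± 0.12 from the low to the high dose. Between the low and medium doses it was 0.08 ± 0.12 and between the medium and high doses 0.72 ± 0.12. By these values the larger step of BIRC3 lay between 20 and 100 µg/mL and that of ICAM1 between 100 and 500 µg/mL, and whether the steps differ between the genes was not tested.

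**Figure D2:**
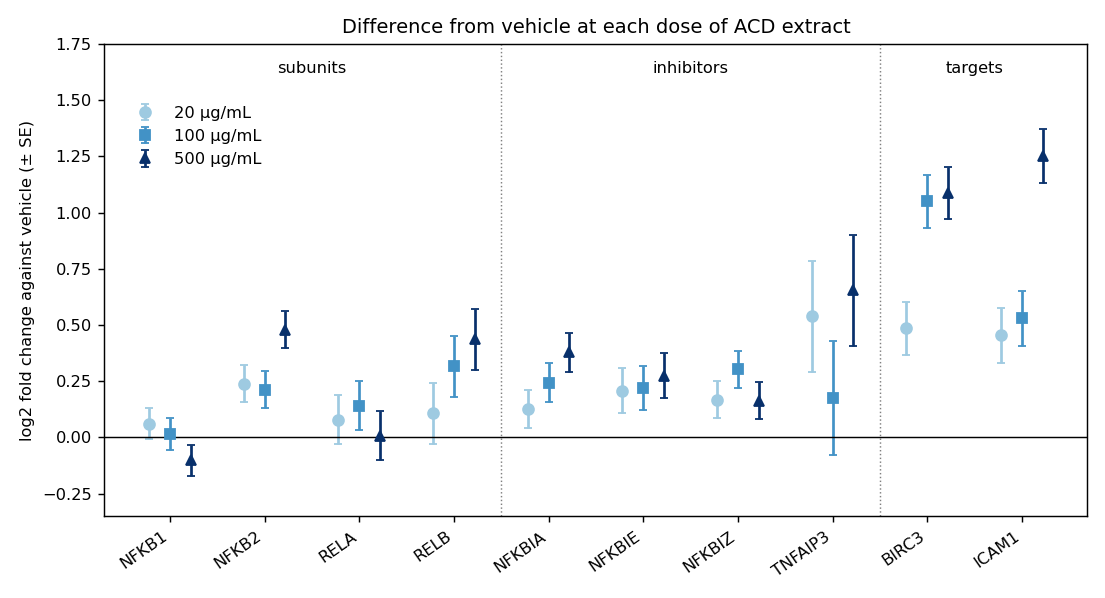
Log2 fold change against vehicle of each of the 10 genes at the 3 doses, from the fit of all 12 libraries, with bars of 1 SE. ICAM1 at 1.25 and BIRC3 at 1.09 lie highest at the high dose, and RELA at 0.01 and NFKB1 at −0.10 lie lowest.

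Levels of different genes were compared per kilobase of the canonical transcript. In vehicle RELA was highest at 43.8 ± 0.784 CPM per kb (SD, n = 3). NFKBIA at 13.6 ± 0.616, NFKB1 at 13.5 ± 0.999 and NFKBIZ at 13.1 ± 1.18 CPM per kb came next and did not differ beyond their spread. NFKB2 followed at 4.66 ± 0.203, RELB at 3.69 ± 0.384 and NFKBIE at 2.38 ± 0.0705 CPM per kb. The 2 targets and TNFAIP3 were the lowest, with ICAM1 at 1.53 ± 0.262, BIRC3 at 0.727 ± 0.0103 and TNFAIP3 at 0.326 ± 0.0781 CPM per kb. At the high dose the order was the same except that NFKBIZ at 14.7 ± 0.519 stood above NFKB1 at 12.6 ± 0.578 CPM per kb, and ICAM1 at 3.67 ± 0.174 above NFKBIE at 2.89 ± 0.126 CPM per kb (SD, n = 3).

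Read by role, the mean log2 CPM of the 2 targets was 2.27 ± 0.13 in vehicle, 2.74 ± 0.13 in the low-dose libraries, 3.06 ± 0.05 in the medium-dose and 3.44 ± 0.04 in the high-dose ones (SD, n = 3). That of the 4 inhibitors was 3.31 ± 0.09, 3.57 ± 0.10, 3.56 ± 0.05 and 3.67 ± 0.07 in the same order. That of the 4 subunits was 4.86 ± 0.01, 4.98 ± 0.03, 5.03 ± 0.08 and 5.05 ± 0.16. The gap between targets and subunits went from −2.59 ± 0.13 in vehicle to −1.62 ± 0.16 at the high dose, and no high-dose library overlapped with vehicle. The gap between inhibitors and subunits was −1.55 ± 0.08 in vehicle, −1.41 ± 0.07 with 20 µg/mL, −1.47 ± 0.10 with 100 µg/mL and −1.38 ± 0.10 with 500 µg/mL, with no steady order over dose. Its range was −1.62 to −1.459 in vehicle and −1.585 to −1.384 at the medium dose, which overlaps with vehicle. It was −1.4515 to −1.3224 at the low dose and −1.452 to −1.27 at the high dose, both clear of vehicle by a margin far below the SD. Both gaps are taken within a library and do not depend on its size. Per library, ICAM1 was at 3.25% to 4.55% of the CPM of RELA in vehicle, 5.26% to 5.47% in the low-dose libraries, 4.93% to 5.82% in the medium-dose and 9.06% to 11.8% in the high-dose ones. BIRC3 was at 4.49% to 4.55%, 5.12% to 6.86%, 7.96% to 9.59% and 7.79% to 12.4% of RELA in the same order. The upper end of both high-dose ranges comes from replicate 2, in which RELA was low.

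**Figure D3:**
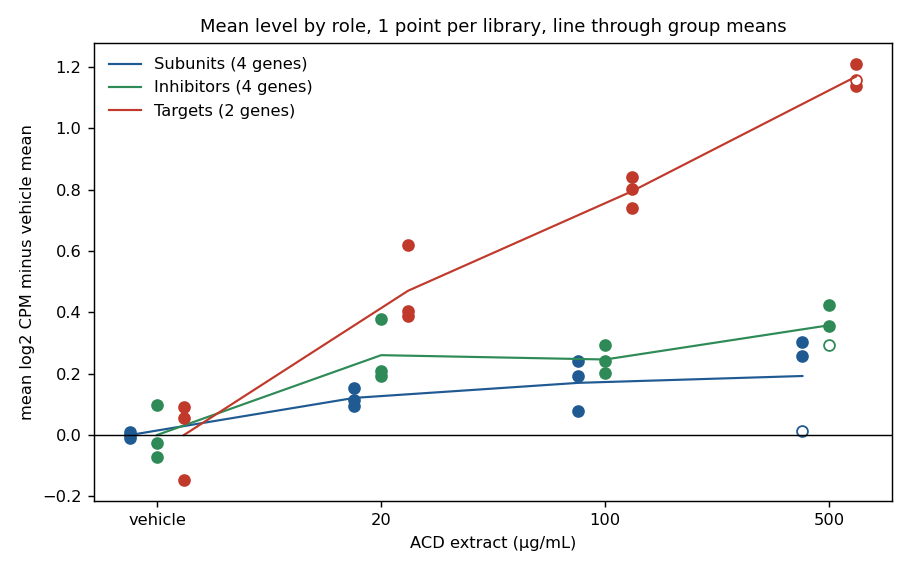
Mean log2 CPM of the 4 subunits, the 4 inhibitors and the 2 targets in each library, less the vehicle mean of the same role, by dose. Points are libraries, lines join group means and the open points are high-dose replicate 2. Before the vehicle mean is taken off, the targets go from 2.27 to 3.44 log2 CPM between vehicle and the high dose, and the subunits from 4.86 to 5.05.

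The rest of the pathway was taken from lists of 97 genes ordered by role, of which 96 were matched to an ID and 79 passed the filter on low counts. These genes were tested in edgeR with Benjamini-Hochberg adjustment over all 15374 genes. The lists were drawn up with earlier results of these data known. The numbers below therefore describe the lists and are not an independent test of the pathway. At the high dose 17 of the 79 had a higher and 1 a lower level past an adjusted p of 0.05, against 2.82% and 2.95% of all genes in the 2 directions, and their median log2 fold change was 0.13 against 0.01 over all genes. At the medium dose 11 were higher and 0 lower, against 0.572% and 0.436% of all genes. At the low dose 2 were higher and 0 lower, against 0.0715% and 0.052%. Between the high and low doses, a comparison that uses no vehicle library, 12 were higher and 1 lower at the high dose, against 1.44% and 1.54%. The 3 comparisons with vehicle share its libraries and are not independent of each other. Without high-dose replicate 2, 23 were higher and 4 lower at the high dose, where the shares of all genes were also larger, at 9.83% and 8.89%. In that setting 18 were higher and 1 lower at the medium dose (3.62% and 3.25% of all genes), and 8 were higher and 0 lower at the low dose (0.97% and 1.06%). The medium-dose number was 6 or 7 without vehicle replicate 2 or 3 or any 1 of the medium-dose libraries, and the low-dose number was 1 without vehicle replicate 2 or 3.

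Of the 7 ligands listed, TNF, LTA, LTB, IL1A and IL1B had at most 10 counts in any library and were not tested, with 0 to 6 counts for TNF. TNFSF10, which encodes the death ligand TRAIL, fell at the high dose from 7.71 ± 0.298 to 4.59 ± 0.810 CPM (SD, n = 3), a log2 fold change of −0.78 ± 0.13 with an adjusted p of 0.00391 in edgeR. Every high-dose library lay below every vehicle library. Of the 6 receptors tested, TNFRSF1A, the main receptor of tumour necrosis factor on epithelial cells, rose at the high dose from 62.7 ± 0.803 to 81.7 ± 8.495 CPM (log2 fold change 0.38 ± 0.08, adjusted p = 0.0122 in edgeR). None of the 28 adaptors and kinases tested was past the threshold at any dose against vehicle in the fit of all 12 libraries. By the shares of all genes given above, a list of this size would hold few calls at any dose. Calls by list without high-dose replicate 2 are not given. The most abundant of them was IRAK1, a kinase of interleukin-1 receptor signalling, at 580 ± 15.1 CPM in vehicle and 585 ± 84.2 CPM at the high dose. RBCK1, part of the complex that builds linear ubiquitin chains, was higher at the high than at the low dose (log2 fold change 0.33, adjusted p = 0.038 in edgeR). The 2 catalytic IkB kinases CHUK and IKBKB had log2 fold changes of 0.06 ± 0.06 and −0.22 ± 0.12 at the high dose.

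Of the other subunits and IkB genes, REL, BCL3 and NFKBIB were not past the threshold, and NFKBID, a nuclear IkB protein, rose at the high dose with a log2 fold change of 0.45 ± 0.10 (adjusted p = 0.0232 in edgeR). REL had wide spread at the high dose, 22.5 ± 13.3 CPM (SD, n = 3), with replicate 2 at 7.29 CPM and the others at 27.9 and 32.2 CPM. Of the 12 brakes tested, ZC3H12A, an RNase that degrades inflammatory transcripts, was at 20.5 ± 1.24 CPM in vehicle and rose to 29.6 ± 2.45 CPM with 500 µg/mL (log2 fold change 0.53 ± 0.09, adjusted p = 0.00353 in edgeR at the high dose). The deubiquitinase CYLD, a brake like TNFAIP3, had a log2 fold change of 0.14 ± 0.08. Of the 8 other survival genes tested, only IER3, an early response gene, was past the threshold, at 65.0 ± 11.5 CPM in vehicle and 105 ± 4.04 CPM at the high dose (log2 fold change 0.70 ± 0.10, adjusted p = 0.00156 in edgeR). XIAP and BIRC2, which belong to the same family as BIRC3, had log2 fold changes of −0.30 ± 0.09 and 0.16 ± 0.10. Of the adhesion and matrix genes, the proteoglycan SDC4 rose from 82.3 ± 3.77 to 122 ± 8.02 CPM (log2 fold change 0.57 ± 0.07, adjusted p = 5.25e-04 in edgeR). CD44 and PLAU, also tested, were not past the threshold, with log2 fold changes of −0.17 ± 0.07 and 1.08 ± 0.44. All high-dose libraries lay below vehicle for CD44 and above it for PLAU, which had 3 to 18 counts per library. VCAM1 and SELE, endothelial companions of ICAM1, had at most 1 count in any library.

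The inflammatory targets held most of the calls, with 12 of the 16 tested higher at the high dose, 9 at 100 µg/mL and 2 at 20 µg/mL, and a median high-dose log2 fold change of 1.46. Of those called, C3, CXCL2, CCL20, IL32 and CD83 had under 10 counts in at least 1 vehicle library and over 10 in every high-dose library. They were not tested where at least 10 counts in every library were asked for. That filter left 12 pathway genes past the threshold at the high dose in place of 18. CXCL1, a neutrophil chemokine, was at 1.98, 1.46 and 1.49 CPM in vehicle, 6.36, 6.76 and 6.80 CPM in the low-dose libraries, 13.4, 11.9 and 13.5 CPM in the medium-dose and 22.2, 34.5 and 23.8 CPM in the high-dose ones. None of these groups overlapped, and CXCL1 rose at each dose, with adjusted p of 0.00177, 4.28e-06 and 1.12e-07 in edgeR from the low to the high dose and log2 fold changes of 2.04, 3.00 and 4.04. CXCL8, interleukin-8, was at 4.95, 4.18 and 3.74 CPM in vehicle and 23.8, 55.6 and 30.0 CPM at the high dose (log2 fold change 3.08 ± 0.27, adjusted p = 3.59e-05 in edgeR). CCL20, which attracts dendritic cells and lymphocytes to the epithelium, was at 0.220, 0.364 and 0.483 CPM in vehicle and 4.46, 8.49 and 5.07 CPM at the high dose (log2 fold change 4.00 ± 0.32, adjusted p = 1.82e-05 in edgeR). For these 3 chemokines the highest library was high-dose replicate 2, and in each gene the other high-dose libraries also lay above every library of the other groups.

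CXCL2 and CXCL3, near relatives of CXCL1 that could share reads with it, rose at the high dose by log2 fold changes of 2.52 ± 0.25 and 2.11 ± 0.23 (adjusted p = 8.80e-05 and 2.24e-04 in edgeR). The complement gene C3 had 1 count over the 3 vehicle libraries and 54, 112 and 127 counts over the low-dose, medium-dose and high-dose libraries. Its ratio of summed levels at the high dose was 136 with an exact 95% interval of 24.0 to 5427, which covers counting error only, and C3 rose at all 3 doses (adjusted p = 0.00799, 2.18e-04 and 3.96e-05 in edgeR). The low-dose call of C3 was lost without vehicle replicate 2 (adjusted p = 0.107) and without vehicle replicate 3, and it held in 17 of 19 alternatives. PTGS2, which encodes cyclooxygenase-2, was highest at the medium dose, with 15.4 ± 1.303 CPM in vehicle, 27.7 CPM at the medium dose and 23.9 ± 0.335 CPM at the high dose (log2 fold change 0.63 ± 0.09 at the high dose, adjusted p = 0.00179 in edgeR). IL32, a cytokine, and CSF1, the macrophage growth factor, rose at the high dose by log2 fold changes of 1.93 ± 0.27 and 1.35 ± 0.31 (adjusted p = 0.00121 and 0.0252 in edgeR). LCN2, an antimicrobial iron-binding protein, rose by 0.35 ± 0.08 (adjusted p = 0.0264). CD83 and TNFAIP2 were near the threshold at adjusted p of 0.0432 and 0.046 in edgeR, and they were past it in 4 of 19 and 5 of 20 alternative settings. The high-dose calls of SDC4, PTGS2, IL32, C3, CCL20, CXCL1, CXCL2, CXCL3 and CXCL8 held in all 19 or 20 alternatives run for them. Those of NFKBID (16 of 20), CSF1 (15 of 20) and LCN2 (15 of 20) were lost without vehicle replicate 2, among others, and that of TNFRSF1A (18 of 20) without high-dose replicate 3. With only the 2 groups compared in the edgeR fit, TNFRSF1A (adjusted p = 0.185), TNFSF10 (0.0697), ZC3H12A (0.0791) and IER3 (0.0712) were not past the threshold. At the medium dose the calls outside the inflammatory targets were ZC3H12A and IER3 (adjusted p = 0.0394 and 0.0272 in edgeR), which held in 9 and 13 of 20 alternatives. Of the inflammatory targets, the medium-dose calls of CXCL3 (9 of 20, adjusted p up to 0.148), IL32 (9 of 19, up to 0.229) and LCN2 (15 of 20, up to 0.148) were lost in some alternatives, each among others without vehicle replicate 2, and the other 6 held in all that were run. IRF1, CXCL10, IL23A and RIPK2 were not past the threshold, with high-dose log2 fold changes of 0.02 ± 0.09, 0.39 ± 0.64, 1.57 ± 0.52 and 0.34 ± 0.12.

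**Figure D4:**
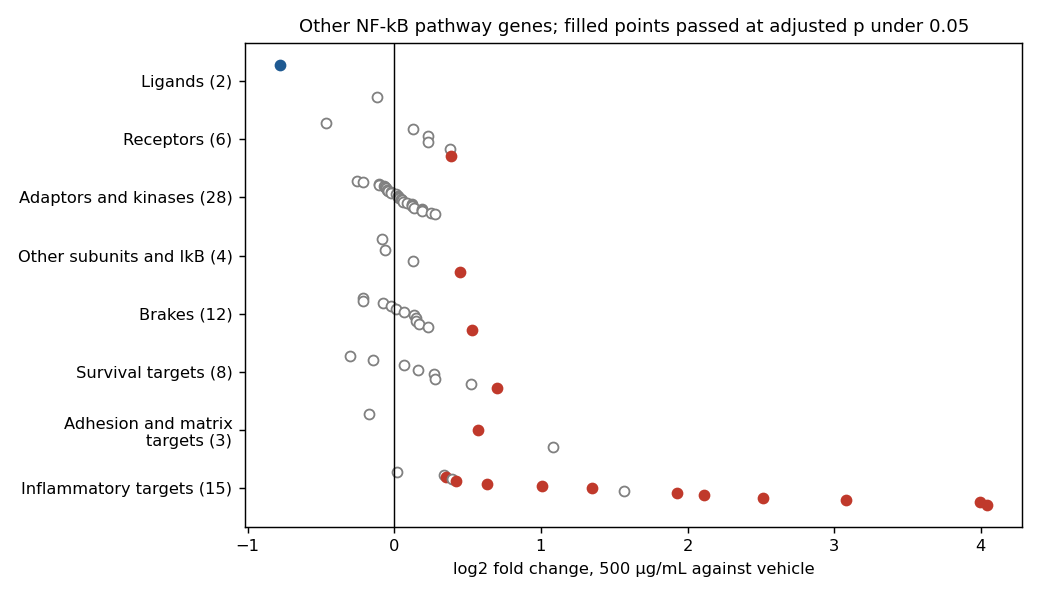
Log2 fold change at the high dose against vehicle of the tested pathway genes other than the 10, by list, with the number drawn in brackets. Each point is a gene, from the fit of all 12 libraries. Filled points have an adjusted p under 0.05 in edgeR (red higher, blue lower). The inflammatory targets reach 4.04 (CXCL1), and none of the 28 adaptors and kinases is filled. Over all genes tested, 2.82% were higher and 2.95% lower at this threshold. C3, with 1 count over the vehicle libraries, is not drawn.

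Among pathway genes with a RefSeq promoter window, whether or not they passed the count filter, the consensus motif was in 12 of 16 inflammatory targets (75%), 4 of 4 other subunits and IkB genes (100%), 3 of 5 adhesion and matrix genes (60%), 2 of 7 ligands (28.6%), 3 of 12 brakes (25%), 1 of 9 survival genes (11.1%), 2 of 25 adaptors and kinases (8%) and 0 of 6 receptors. The share over all genes was 7.09%. The other subunits and IkB genes, all with a match, had a median high-dose log2 fold change of 0.03. That median leans on high-dose replicate 2, in which REL was at 7.29 CPM and BCL3 at 11.6 CPM. In the other high-dose libraries REL was at 27.9 and 32.2 CPM and BCL3 at 17.6 and 18.0 CPM, with vehicle means of 24.0 and 14.6 CPM. Whether a match goes with the fold change was not tested.

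For the 3 genes with the highest high-dose fold change, the genes of nearest pattern were found over the 9 treated libraries as the smallest root mean square difference in log2 ratio to the vehicle mean, among 10625 genes with a mean of at least 5 CPM. For ICAM1 they were GPAT3 (0.203), ITGB7 (0.233) and DUSP5 (0.243). For BIRC3 they were EREG (0.165), PIM1 (0.174) and VIPR1 (0.224). For TNFAIP3 they were KLHL17 (0.231), EME2 (0.246) and PAN2 (0.247). EREG, which encodes the growth factor epiregulin, had log2 fold changes of 1.10, 0.88 and 0.31 at the high, medium and low dose. Those of PIM1, a kinase, were 1.13, 1.23 and 0.39, beside 1.09, 1.05 and 0.48 for BIRC3. Such closeness follows from the choice, which used these same libraries, and nothing is read from it. For TNFAIP3 the distances were below its own pooled SD within groups of 0.311 on the log2 CPM scale.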

How the data were processed

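RNA from HT29 cells was sequenced in 12 libraries, 3 per group, with a directional kit. In the study, the authors used FastQC for read quality, Trim Galore for adapters, STAR for alignment and RSEM with annotation GRCh38.84 for quantification. The strand setting of RSEM is not given in the sources used here. The deposited values are RSEM expected counts per gene, not normalized, and depth was 15941255 to 33866644 counts per library. A treatment note names Poria cocos in place of ACD, and groups follow the titles. The 2% DMSO of the vehicle and the doses are as in the labels and the methods.

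Expected counts were rounded to whole numbers and tested with edgeR 4.0.16 (R 4.3.3) quasi-likelihood, filterByExpr (15374 genes kept), TMM scaling and robust estimation. All 12 libraries were fitted together with groups as the only terms, and Benjamini-Hochberg adjustment was over the genes tested in each comparison. DEGs passed an adjusted p of 0.05 with more than 1.5-fold change. The study used DESeq2, run here (1.42.0) as an alternative. CPM are counts over TMM-scaled library size, log2 CPM had a prior count of 2, and gene locations are GENCODE (GRCh38). ID matching covered 93.2% of gene IDs and 98.1% of those with a count. Alternatives were the groups compared alone, other size factors, library sizes without mitochondrial genes, other count filters, a replicate block, each library left out and no or an added minimum fold. On simulated data for the high dose (15374 genes, 200 changed), edgeR recovered 99 of the 2-fold and 100 of the 4-fold changes, with 9 wrong calls. The simulation gave all genes the same common dispersion, changed no gene of very low level and had no outlying library. It checks that the code runs as intended and does not give the power or error rate in these data.

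The genes and lists were chosen with earlier results of these data known. Named genes are the 10 chosen genes, every other pathway gene past an adjusted p of 0.05 at any dose against vehicle, the most abundant gene of a list without one, and the 3 genes of nearest pattern for the 3 largest high-dose fold changes. RBCK1, CHUK, IKBKB, REL, BCL3, NFKBIB, CYLD, XIAP, BIRC2, CD44, PLAU, IRF1, CXCL10, IL23A, RIPK2 and the ligands and adhesion genes at low counts were added after their values were seen. A further leukocyte marker is not reported here.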

Additional observations from a re-analysis of the deposited data

How the results depend on the processing

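The log2 fold changes of the 10 genes kept their direction in all 20 alternatives at every dose, except RELA at the high dose (16 of 20, from −0.08 to 0.15) and NFKB1 at the medium dose (19 of 20, from −0.04 to 0.06). DEGs over all genes numbered 451 at the high, 104 at the medium and 17 at the low dose. In edgeR on the 2 groups alone they were 172, 191 and 51, and in DESeq2 on the 2 groups alone 299, 164 and 70. DESeq2 on all libraries gave 50 at the low dose, no count filter gave 34 there, and no minimum fold gave 887 at the high dose. With each library left out, the numbers ran from 310 to 768 at the high, 52 to 249 at the medium and 10 to 109 at the low dose, the highest each time without high-dose replicate 2. Pathway genes past the adjusted p, 18, 11, 2 and 13 for the high, medium and low dose and for high against low, became 9 at the high dose, 7 at the low dose and 3 for high against low in edgeR on the 2 groups alone. At the low dose they were 6 in DESeq2 on all libraries, 7 in DESeq2 on the 2 groups alone, 4 without a filter and 1 with at least 10 counts in every library, and that filter gave 7 at the medium dose. With a fold over 1.5 as well, high against low gave 8. Leaving out each library gave 13 to 27, 6 to 19, 1 to 8 and 7 to 18. High against low was 7 or 8 without high-dose replicate 1 or low-dose replicate 2 or 3. Some alternatives have fewer libraries or genes by construction, and the cause of the shifts was not tested in any of them.

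Samples with the same replicate number share only that number. The correlation of their deviations was over 0.1 in 5 of 18 pairs (−0.495 to 0.372), and 4 of 12 libraries were closest to their own number. With the replicate block, DEGs numbered 379, 75 and 17 at the high, medium and low dose, and pathway genes 15, 6, 2 and 10.

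Depth limits the low genes: TNFAIP3 had 23 to 83 counts per library. Groups of 3 give little information on the spread of any 1 gene, and the common biological coefficient of variation was 11.2%.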
